A study of Mus musculus with 8 samples.

Results

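The SR splicing factors are a small family of nuclear RNA-binding proteins, and the 10 members described here were chosen by name: *Srsf1*, *Srsf2*, *Srsf3*, *Srsf4*, *Srsf5*, *Srsf6*, *Srsf7*, *Srsf9*, *Srsf10* and *Srsf11*. Each symbol mapped to 1 gene of the 55385 genes in the count table, and 10 of the 10 passed the filter on low counts, as did 17445 genes in all.

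SR proteins carry RNA recognition motifs at one end and a domain rich in arginine-serine repeats at the other. Bound to enhancer sequences inside exons, they help the U1 snRNP and U2AF find the splice sites at either side, and hnRNP proteins often oppose them at the same exons. Their repeats are phosphorylated by the SRPK kinases in the cytoplasm and the CLK kinases in the nucleus. Most SR genes also restrain themselves: a poison exon or a spliced 3′ end, included when the protein is abundant, sends the transcript to nonsense-mediated decay (NMD).

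The study asked how gene expression and splicing change in cells with less EFTUD2, a GTPase of the U5 snRNP that acts later, in the catalytic spliceosome. Wild-type R1 mouse embryonic stem cells (mESCs), grown on coated plates in N2B27 medium with 2i and LIF, were infected for 2 days with a lentivirus and selected for 3 days in puromycin. The virus carried shRNA1 (3 libraries), directed at the untranslated 3′ end of *Eftud2*, shRNA2 (3 libraries), directed at its coding sequence, or a non-targeting hairpin, nt-shRNA (2 libraries). All groups therefore share the line, the virus and the selection, and each *Eftud2* knockdown (KD) rests on 1 hairpin in 1 line. The libraries are labelled as biological replicates without a statement on separate cultures, so that p-values measure the spread between these libraries.

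*Eftud2* itself was measured first. In CPM after scaling by the trimmed mean of M-values (TMM), hereafter normalised CPM, its level was 262 and 255 with nt-shRNA, 232, 229 and 225 with shRNA1, and 198, 202 and 234.5 with shRNA2. Both knockdown groups lay below both control libraries. By edgeR's quasi-likelihood test, with p-values adjusted over all 17445 genes, the fall was called with shRNA2 (log2 fold change -0.29, adjusted p = 0.00122) and not with shRNA1 (-0.18, adjusted p = 0.0515). The latter was called in 5 of 15 alternative analyses, among them those without shRNA2 replicate 2 (adjusted p = 0.0414) or 3 (adjusted p = 0.0215), and was -0.07 when scaled by library size alone (adjusted p = 0.496). The paper reported a knockdown of *Eftud2* by qPCR with both hairpins, stronger with shRNA2, and less EFTUD2 protein with both. Its qPCR falls were much larger than those in the counts, and the reason for this difference was not tested. Depth was between 19569525 and 29871048 counts. The 8 mESC markers (*Pou5f1*, *Nanog*, *Sox2*, *Esrrb*, *Zfp42*, *Klf4*, *Tfcp2l1* and *Dppa5a*) summed to between 6580 and 6970 normalised CPM over all libraries, but single markers differed between groups. From nt-shRNA to shRNA2 the mean level of *Nanog* went from 911 to 1550, that of *Klf4* from 185 to 460 and that of *Zfp42* from 614 to 890, while *Dppa5a* went from 2450 to 1260 and *Pou5f1* from 773 to 634. The summed level of 3 neural markers was 16.8 to 19.3 normalised CPM with nt-shRNA, 21.7 to 24.2 with shRNA1 and 32.3 to 46.1 with shRNA2. This rise came from *Tubb3*, with means of 10.2, 15.6 and 30.5. Mean *Sox1* (6.38, 5.91 and 5.52) and *Pax6* (1.5, 1.01 and 1.12) were lower in both knockdown groups. The summed level of 4 fibroblast markers was 4.56 to 4.87, 6.46 to 7.34 and 6.27 to 7.47, with *Col3a1* at 0 in both nt-shRNA libraries and at most at 0.0465 elsewhere. Primitive endoderm markers, 3 genes, summed to 19.8 to 20.2, 18.4 to 21.9 and 13.9 to 16.8, and 3 mesoderm markers to 20.1 to 23.5, 20.4 to 22.6 and 19.3 to 25.9. The neural sum, through *Tubb3* alone, and the fibroblast sum were higher in both knockdown groups than in the control libraries. So were the 5 members called with both hairpins below. The part of these markers and of the mESC markers in the results was not tested.

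Against nt-shRNA, 5 of the 10 SR transcripts rose with both hairpins, 3 more with shRNA2 and *Srsf4* and *Srsf11* with neither. With shRNA2, 8 of the 10 members rose against nt-shRNA and 0 fell, whereas 27.2% of all genes tested were called higher, 28.7% lower and 55.9% in either direction. The median log2 fold change was 0.43 over the members and 0.00 over all genes. With shRNA1, 5 of the 10 rose (*Srsf1*, *Srsf2*, *Srsf3*, *Srsf5* and *Srsf10*) and 0 fell, beside 13.8% higher, 17.1% lower and 30.9% in either direction over all genes, and the medians were 0.15 and -0.01. Scaled by library size alone, without TMM, the median of all genes moved to 0.11 with shRNA1 and that of the members to 0.26, and the split of all calls was 4098 higher and 1718 lower in place of 2407 and 2981. With shRNA2 that scaling gave 0.09, 0.52 and a split of 5845 and 4080 in place of 4748 and 5010. In all 3 comparisons the number that fell was 0 by edgeR's adjusted p, by its unadjusted p under 0.05 and by DESeq2. Because the RNA came from whole cultures, more transcript per cell and more cells with a high level cannot be told apart.

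The count with shRNA1 rested on single libraries. It was 1 without shRNA1 replicate 1, without shRNA1 replicate 2 or without nt-shRNA replicate 1, 2 without nt-shRNA replicate 2, and 6 without shRNA1 replicate 3. *Srsf3* was the only member called with shRNA1 in all 15 alternative analyses. The count with shRNA2 was 7 or 8 whichever library was left out.

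**Figure D1:**
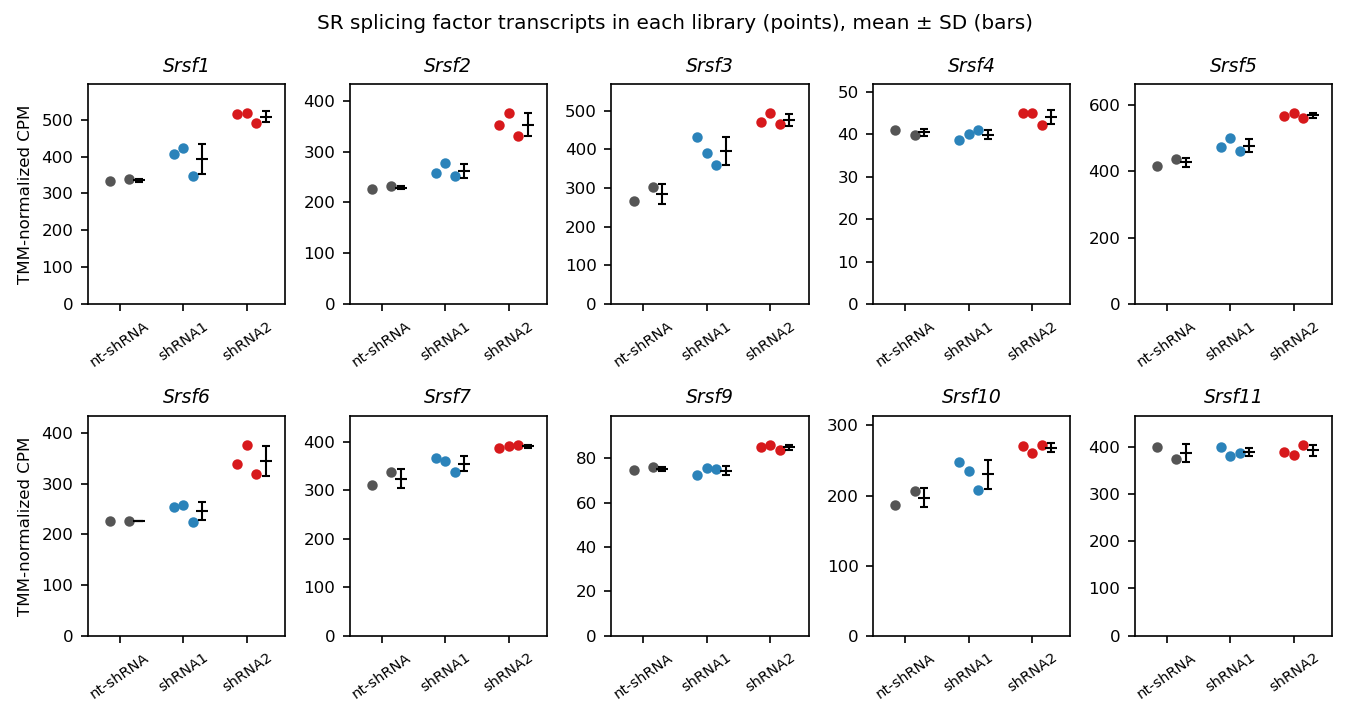
Normalised CPM (TMM, linear axis from 0) of each SR gene in each library, as points, with the mean ± SD of the group as bars, for nt-shRNA (n = 2), shRNA1 (n = 3) and shRNA2 (n = 3). The shRNA2 points sit above both nt-shRNA points except in *Srsf11*, where the 3 groups overlap. How many of all genes separate in this way was not counted.

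Upstream sequence is shown for the 3 members that rose most with shRNA2, as the part of the genome from which these transcripts start. Each is read from RefSeq on GRCm38.p6, 5′ to 3′ on the strand of the gene. The *Srsf3* stretch is chr17:29032410-29032627 on the plus strand, that of *Srsf2* is chr11:116853095-116853344 on the minus strand and that of *Srsf6* is chr2:162931258-162931507 on the plus strand. Capitals mark matches, on either strand, to the CCAAT box (CCAAT), the GC box (GGGCGG) and the TATA box (TATAAA).
Srsf3: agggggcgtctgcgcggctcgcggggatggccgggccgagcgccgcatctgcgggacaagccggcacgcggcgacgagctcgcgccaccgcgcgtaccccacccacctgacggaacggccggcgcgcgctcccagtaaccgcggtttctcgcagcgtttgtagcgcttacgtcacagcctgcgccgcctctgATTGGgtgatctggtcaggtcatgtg
Srsf2: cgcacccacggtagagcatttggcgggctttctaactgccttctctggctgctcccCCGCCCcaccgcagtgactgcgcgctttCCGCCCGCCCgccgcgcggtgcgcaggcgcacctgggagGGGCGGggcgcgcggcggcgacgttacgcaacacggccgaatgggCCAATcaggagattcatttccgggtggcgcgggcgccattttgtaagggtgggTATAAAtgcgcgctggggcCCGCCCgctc
Srsf6: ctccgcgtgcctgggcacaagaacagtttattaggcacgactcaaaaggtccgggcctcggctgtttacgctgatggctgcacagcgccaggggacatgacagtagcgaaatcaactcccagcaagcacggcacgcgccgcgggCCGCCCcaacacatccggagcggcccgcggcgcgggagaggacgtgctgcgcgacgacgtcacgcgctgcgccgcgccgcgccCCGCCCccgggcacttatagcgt
The *Srsf2* stretch holds all 3 motifs, and 2 of its 5 GC boxes overlap each other. In *Srsf3* a CCAAT box lies on the opposite strand 58 bases before the RefSeq start, and its TATA box lies 18 bases before that start, in 32 bases that are left out above because the deposited annotation already counts them as transcribed. The *Srsf6* stretch holds 2 GC boxes on the opposite strand and no other match. Exons of other genes on the opposite strand reach into 2 of these stretches, with 50 bases of *Mfsd11* in that of *Srsf2* and 159 bases of *Gm16196* in that of *Srsf3*.

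All 10 members had an entry in this RefSeq table. In the 250 bases before the most upstream start, a GC box was found in 9 of the 10, all but *Srsf3*, and in 33.0% of 27025 genes. A CCAAT box was found in 3 (*Srsf2*, *Srsf3* and *Srsf10*) and in 34.5% of all genes, and a TATA box in 2 (*Srsf2* and *Srsf3*) and in 13.0%. GC boxes overlapped in *Srsf2* and lay directly side by side in *Srsf4*. The stretches shown were 69.6%, 69.6% and 68.4% G or C over the full 250 bases for *Srsf3*, *Srsf2* and *Srsf6*, above the upper quartile of all genes at 60.8%. These matches are a description of letters in a window.

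*Srsf3* and *Srsf7*, the closest relatives in the family, bind the mRNA export receptor NXF1 and link splicing to export. *Srsf3* (chr17:29032628-29043373, plus strand, 4 exon blocks) was at 265 and 302 normalised CPM with nt-shRNA, 432, 392 and 359.8 with shRNA1, and 471, 493 and 464.5 with shRNA2. The 3 groups did not overlap. It had the largest log2 fold change of the family against nt-shRNA with either hairpin, 0.48 (SE 0.0752, edgeR adjusted p = 9.98e-05) with shRNA1 and 0.75 (SE 0.0758, adjusted p = 1.24e-07) with shRNA2, a rise of 1.39-fold and 1.68-fold. *Srsf7* (chr17:80200080-80207307, minus strand, 8 exon blocks), which adds a zinc knuckle to the family plan, moved less. Its levels were 309.7 and 338 with nt-shRNA, 367, 360.3 and 337 with shRNA1, and 386, 390.5 and 394 with shRNA2. The shRNA1 libraries overlapped the controls and the shRNA2 libraries lay above every other library. *Srsf7* rose with shRNA2 (log2 fold change 0.27, SE 0.0617, edgeR adjusted p = 0.00108), and was not called with shRNA1 (0.13, 95% interval 0.00 to 0.26, adjusted p = 0.113) except without shRNA1 replicate 3 (adjusted p = 0.0346) and when scaled by library size alone (0.24, adjusted p = 0.00606).

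*Srsf1* and *Srsf2* are the best known general activators of the family, the first a shuttling protein with roles in translation and NMD, the second a component of nuclear speckles. *Srsf1* (chr11:88047373-88053755, plus strand, 3 exon blocks) was at 333 and 339 normalised CPM with nt-shRNA, 408, 424 and 347 with shRNA1, and 516, 518 and 491 with shRNA2. The groups stepped up without overlap, although shRNA1 replicate 3 stayed close to the controls. The log2 fold change was 0.23 (SE 0.0727, edgeR adjusted p = 0.0231) with shRNA1 and 0.60 (SE 0.0734, adjusted p = 1.39e-06) with shRNA2. *Srsf2* (chr11:116849901-116853094, minus strand, 2 exon blocks) was at 227 and 231 with nt-shRNA, 258, 278 and 252 with shRNA1, and 353, 376 and 331 with shRNA2. Again no groups overlapped. Its log2 fold change was 0.20 (SE 0.0658, edgeR adjusted p = 0.0301) with shRNA1 and 0.62 (SE 0.0665, adjusted p = 2.41e-07) with shRNA2, the second largest of the family. Both calls with shRNA1 were lost without shRNA1 replicate 1 or 2 and without either nt-shRNA library, at an adjusted p of 0.0861 to 0.137 for *Srsf1* and 0.0501 to 0.173 for *Srsf2*, and none of the calls with shRNA2.

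*Srsf4*, *Srsf5* and *Srsf6* form a subfamily with a pair of RNA recognition motifs and long arginine-serine domains. Differences between their changes were not tested. *Srsf6* (chr2:162931528-162937121, plus strand, 5 exon blocks) was at 226 and 227 normalised CPM with nt-shRNA, 255, 259 and 225.5 with shRNA1, and 339, 377 and 319.5 with shRNA2. Replicate 3 of shRNA1 lay just below both controls, so that the groups overlapped, whereas each shRNA2 library lay above all others. The log2 fold change was 0.12 (95% interval -0.03 to 0.27, edgeR adjusted p = 0.231) with shRNA1 and 0.61 (SE 0.0743, adjusted p = 1.34e-06) with shRNA2. With shRNA1 it was called when scaled by library size alone (0.23, adjusted p = 0.019) and when replicate numbers entered as a block (0.18, adjusted p = 0.0352). *Srsf5* (chr12:80945504-80950507, plus strand, 4 exon blocks), first described as a gene induced in regenerating liver, was at 416 and 436 with nt-shRNA, 472, 500.2 and 459 with shRNA1, and 567, 574.5 and 561 with shRNA2. Its groups did not overlap, and it rose by 0.16 on the log2 scale (SE 0.0599, edgeR adjusted p = 0.0451) with shRNA1 and 0.41 (SE 0.0603, adjusted p = 1.07e-05) with shRNA2. The shRNA1 call of *Srsf5* was lost without shRNA1 replicate 1 or 2, without either nt-shRNA library and without shRNA2 replicate 1, which enters the shared spread (adjusted p = 0.0658 to 0.293). *Srsf4* (chr4:131873617-131901706, plus strand, 8 exon blocks) was at 41.0 and 39.95 with nt-shRNA, 38.75, 40.0 and 40.95 with shRNA1, and 45.0, 45.0 and 42.1 with shRNA2. It was the only one of this subfamily called with neither hairpin: the log2 fold change was -0.02 (95% interval -0.17 to 0.13, edgeR adjusted p = 0.859, and 0.09 when scaled by library size alone) with shRNA1 and 0.12 (-0.03 to 0.27, adjusted p = 0.157) with shRNA2. Scaling by library size alone made the latter 0.21 and called it (adjusted p = 0.0174).

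*Srsf9*, *Srsf10* and *Srsf11* are less studied and can repress as well as activate splicing, and *Srsf10* in particular acts as a repressor once dephosphorylated. *Srsf10* (chr4:135855747-135869908, plus strand, 7 exon blocks) was at 187 and 207 normalised CPM with nt-shRNA, 248, 235 and 207 with shRNA1, and 271, 261 and 273 with shRNA2. The lowest shRNA1 library all but touched the higher control, and the shRNA2 libraries lay above the rest. It rose by 0.22 on the log2 scale (SE 0.0719, edgeR adjusted p = 0.0228) with shRNA1 and 0.45 (SE 0.0723, adjusted p = 3.52e-05) with shRNA2. The former call was lost without shRNA1 replicate 1 or 2 and without nt-shRNA replicate 1 (adjusted p = 0.075 to 0.271). *Srsf9* (chr5:115327177-115333080, plus strand, 7 exon blocks), a short relative of *Srsf1*, was at 74.6 and 75.9 with nt-shRNA, 72.3, 75.7 and 75.2 with shRNA1, and 84.9, 86.1 and 83.8 with shRNA2. Only shRNA2 set its libraries apart. The log2 fold change was -0.02 (95% interval -0.14 to 0.11, edgeR adjusted p = 0.872, and 0.10 when scaled by library size alone) with shRNA1 and 0.18 (SE 0.0613, adjusted p = 0.0208) with shRNA2, and the latter call was lost without nt-shRNA replicate 1 (adjusted p = 0.137) and without nt-shRNA replicate 2 (adjusted p = 0.0879).

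*Srsf11* (chr3:158010473-158036639, minus strand, 14 exon blocks), a distant member that contacts U2AF, had overlapping groups in every comparison. Its levels were 401 and 374 normalised CPM with nt-shRNA, 399, 381 and 387 with shRNA1, and 390.1, 383.5 and 405 with shRNA2. The log2 fold change was 0.01 (95% interval -0.12 to 0.13, edgeR adjusted p = 0.947) with shRNA1 and 0.02 (-0.10 to 0.14, adjusted p = 0.79) with shRNA2. The upper ends of these intervals lie below the estimates for *Srsf3* with either hairpin.

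**Figure D2:**
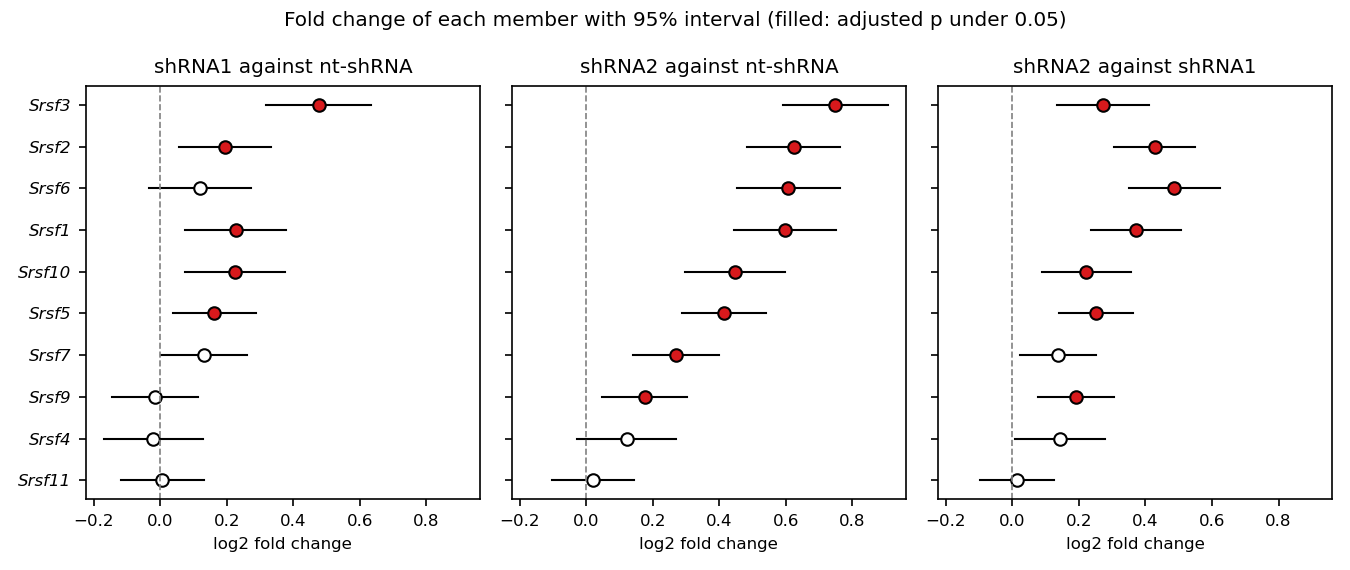
Log2 fold change of each SR gene with its 95% interval in the 3 comparisons, ordered by the change with shRNA2, with filled points where edgeR's adjusted p is under 0.05. Against nt-shRNA, points run from -0.02 to 0.48 with shRNA1 and from 0.02 to 0.75 with shRNA2.

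The 2 hairpins were also compared directly, without the level of the controls as a reference. The control libraries still entered the filter, the scaling and the shared spread. *Eftud2* itself was not called between them (log2 difference -0.11, 95% interval -0.24 to 0.02, edgeR adjusted p = 0.163). Its level in shRNA2 replicate 3 (234.5 normalised CPM) lay above all 3 shRNA1 libraries. Without that replicate the difference was called (-0.19, edgeR adjusted p = 0.0127), the only call in 15 alternatives, and without shRNA2 replicate 1 it was -0.07. With shRNA2, 7 of the 10 members were higher than with shRNA1 and 0 lower, and the median log2 difference was 0.24 over the members and 0.00 over all genes, of which 16.9% were called higher, 18.7% lower and 35.6% in either direction. *Srsf6*, called with shRNA2 alone, had the largest difference, 0.49 (SE 0.0656, edgeR adjusted p = 2.28e-05). *Srsf2* followed with 0.43 (adjusted p = 2.7e-05) and *Srsf1* with 0.37 (adjusted p = 0.000252). In *Srsf3* the difference between the hairpins was 0.27 (adjusted p = 0.00368), beside 0.48 between shRNA1 and nt-shRNA. The differences of *Srsf5* (0.25, adjusted p = 0.00136), *Srsf10* (0.22, adjusted p = 0.0112) and *Srsf9* (0.19, adjusted p = 0.0113) were also called. *Srsf4* (0.14, 95% interval 0.01 to 0.28, adjusted p = 0.0958), *Srsf7* (0.14, 0.02 to 0.25, adjusted p = 0.0579) and *Srsf11* (0.01, -0.10 to 0.12, adjusted p = 0.868) were not. *Srsf4* and *Srsf7* had every shRNA2 library above every shRNA1 library, but how many of all genes separate in this way was not counted. The call of *Srsf10* was lost without shRNA1 replicate 3 (adjusted p = 0.0564).

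Within each group, most members had their lowest value in the same library. The lowest shRNA1 value was in replicate 3 for 7 of the 10 members, the lowest shRNA2 value in replicate 3 for 7, and the lowest nt-shRNA value in replicate 1 for 8. Whether replicates of equal number belong together is not known, and all members of 1 library share its scaling. The same counts over all genes were not made, and nt-shRNA has only 2 libraries.

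To compare levels between genes, counts were divided by the exon length of each gene, giving normalised RPKM (normalised CPM per kilobase of exon). In control cells *Srsf5* was the most abundant SR transcript per length, at 107 ± 3.56 normalised RPKM (SD, n = 2), followed by *Srsf7* at 91.2 ± 5.59, *Srsf2* at 77.5 ± 0.983 and *Srsf1* at 58.8 ± 0.688. *Srsf6* (47.1 ± 0.0763), *Srsf11* (45.9 ± 2.23) and *Srsf9* (45.5 ± 0.547) had overlapping levels per length. Below them came *Srsf3* at 35.9 ± 3.25, *Srsf10* at 28.1 ± 1.98 and *Srsf4* at 11.4 ± 0.216. Among all genes tested, *Srsf3* stood at the 91.1 percentile of level per length and *Srsf4* at the 72.6 percentile. With shRNA2 (n = 3), *Srsf2* at 119 ± 7.54 normalised RPKM passed *Srsf7* at 109.9 ± 1.10, and *Srsf3* at 60.3 ± 1.92 passed *Srsf9* at 51.4 ± 0.689 and *Srsf11* at 46.5 ± 1.30. With shRNA1 (n = 3), *Srsf6* at 51.2 ± 3.78, *Srsf3* at 49.9 ± 4.58, *Srsf11* at 46.1 ± 1.08 and *Srsf9* at 45.0 ± 1.11 overlapped, each with the next.

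The order depended on the length used. The exon length in the count table includes exons of non-coding isoforms, and coding transcripts cover 33.1% of it for *Srsf3* and 39.4% for *Srsf11*, against 97.3% for *Srsf1*. Divided by the exon length of coding transcripts, a choice added after the data were seen, *Srsf3* in nt-shRNA cells was at 108 ± 9.80 normalised RPKM and ranked 5, and it ranked 2 with shRNA1 and with shRNA2, behind *Srsf5*. *Srsf11* ranked 3 in control cells on this scale. These ranks rest on close levels. In control cells *Srsf11* was at 116.5 ± 5.67 normalised RPKM and *Srsf2* at 114.5 ± 1.45. *Srsf3* was at 150.7 ± 13.8 with shRNA1, beside *Srsf7* at 137.6 ± 5.97, and at 181.9 ± 5.8 with shRNA2, beside *Srsf2* at 176.3 ± 11.1.

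**Figure D3:**
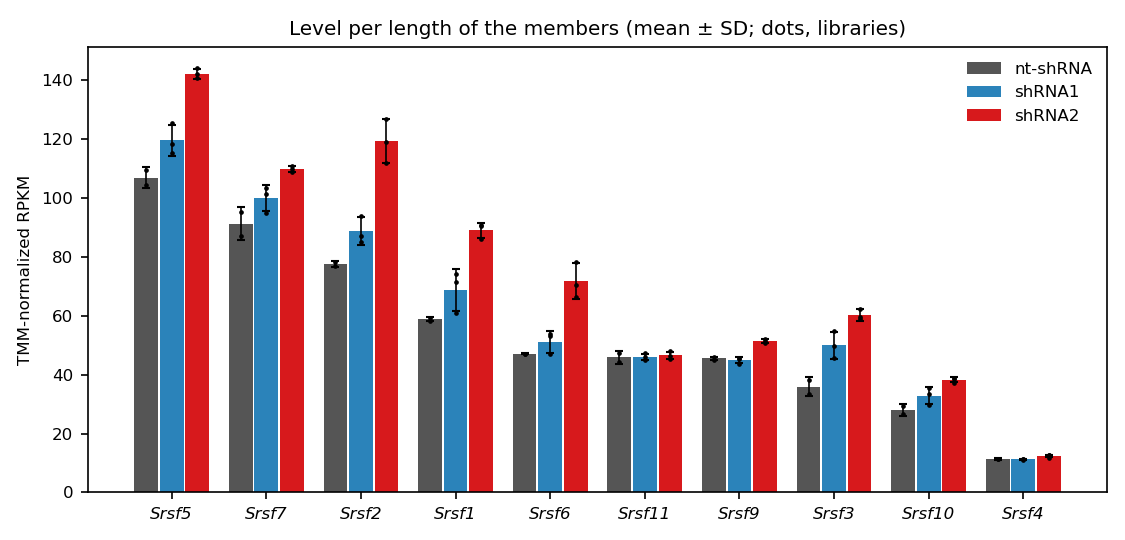
Normalised RPKM (TMM, exon length of the count table) of each SR gene, ordered by the nt-shRNA level, with bars for the mean, error bars for the SD and dots for libraries (n = 2, 3 and 3). With this length *Srsf5* is highest and *Srsf4* lowest in each group, and *Srsf2* overtakes *Srsf7* with shRNA2.

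Summed over the 10 members, the level was 548 ± 14.2 normalised RPKM with nt-shRNA (SD, n = 2), 614 ± 28.6 with shRNA1 (n = 3) and 741 ± 18.0 with shRNA2 (n = 3). The make-up of this pool shifted. *Srsf3* took 6.54% ± 0.423 of it with nt-shRNA, 8.13% ± 0.527 with shRNA1 and 8.13% ± 0.0781 with shRNA2, and *Srsf2* took 14.1% ± 0.188, 14.5% ± 0.462 and 16.1% ± 0.627. *Srsf11* went the other way, from 8.37% ± 0.625 to 7.52% ± 0.391 and 6.28% ± 0.324, and *Srsf7* from 16.6% ± 0.589 to 16.3% ± 0.263 and 14.8% ± 0.440. *Srsf5* kept the largest share, at 19.5% ± 0.144, 19.5% ± 0.506 and 19.2% ± 0.237. Both the sum and the shares depend on the length used: with the exon length of coding transcripts the sums were 956, 1079 and 1289 normalised RPKM, and the share of *Srsf3* was 11.3% ± 0.724, 14.0% ± 0.888 and 14.1% ± 0.155. The shares are of a sum, so that a rise in one lowers the others, and they were not tested.

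Gene-level counts pool every isoform of an SR gene. GENCODE M21 lists 85 transcripts for the 10 genes, of which 29 are coding, 15 are NMD targets in 9 of the genes (all but *Srsf10*) and 26 retain an intron in 8 (all but *Srsf9* and *Srsf10*). *Srsf11* has the most, with 19 transcripts, 3 of them NMD targets and 11 with a retained intron. *Srsf3* has 10, of which 1 is coding, 2 are NMD targets and 4 retain an intron. The counts cannot say which of these isoforms rose. Some members also share sequence: 25.3% of the exon bases of *Srsf2*, 43.0% of those of *Srsf4* and 1.72% of those of *Srsf1* overlap exons of a gene on the opposite strand, and fragments there were not counted for either gene. The exon lengths of the count table include these bases, so the levels per length of these genes can be too low. Their ranks above were not recomputed without those bases. Copies elsewhere in the annotation match 49.5% of the longest coding transcript of *Srsf3* (5 genes), 51.7% of that of *Srsf5* (1 gene) and 14.6% of that of *Srsf10* (2 genes) at 95% identity or more over at least 100 bases, so that counts of these 3 are uncertain to the extent that fragments aligned to several places, which were left out.

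The genes that work with or against SR proteins were read in the same fit, from 5 lists of 65 genes of which 63 could be tested. With shRNA2, 24 rose and 14 fell, 60.3% of those tested beside 55.9% of all genes, and their log2 fold changes had a median of 0.10. With shRNA1, 6 rose and 11 fell, 27% beside 30.9% of all genes, with a median of -0.04, and scaling by library size alone turned this split to 17 higher and 6 lower. The shRNA1 counts moved to 3 and 6 without nt-shRNA replicate 1, 7 fell without shRNA1 replicate 2, and 11 rose without shRNA1 replicate 3. With shRNA2, 7 fell without nt-shRNA replicate 1, and scaling by library size alone gave 36 higher and 9 lower. In the direct comparison 34 were higher with shRNA2 and 5 lower, 61.9% beside 35.6% of all genes, a median of 0.16, and the 5 became 3 without shRNA1 replicate 1 or 3 and 2 without shRNA2 replicate 2. The SR family thus had the higher median in each of the 3 comparisons, 0.43, 0.15 and 0.24, a difference between lists that was not tested. Among 24 SR-related proteins, 4 rose and 6 fell with shRNA1, beside 13.8% and 17.1% of all genes. The counts with shRNA2 were 10 and 6, beside 27.2% and 28.7% of all genes. *Son*, the large scaffold of nuclear speckles, rose from 219 ± 9.5 to 532 ± 39.7 normalised CPM (log2 fold change 1.28, edgeR adjusted p = 1.1e-10), more than any SR gene. *Bclaf1* rose by 0.72 (adjusted p = 7.31e-08), whereas *Tra2a*, a sequence-specific activator, and *Rnps1*, an exon junction complex factor, were lower (log2 fold changes -0.52 and -0.32).

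Kinases were called in both directions. Of 9 tested kinases and import receptor genes (*Srpk3* failed the filter), 2 rose and 4 fell with shRNA2, where 27.2% of all genes were higher and 28.7% lower. With shRNA1, where 13.8% were higher and 17.1% lower, 0 rose (1 at an unadjusted p under 0.05, 0 by DESeq2) and 3 fell. *Clk3* fell from 118 ± 10.7 to 61.2 ± 4.5 normalised CPM with shRNA2 (log2 fold change -0.95, edgeR adjusted p = 1.98e-08), and *Clk1* from 162 ± 9.43 to 111 ± 5.03 (-0.55, adjusted p = 5.29e-07). Both phosphorylate SR proteins in the nucleus. *Dyrk1a* (0.40) and *Prpf4b* (0.38), nuclear kinases of splicing factors, rose.

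Beside those same shares over all genes with shRNA2 (27.2% higher, 28.7% lower), the other lists stood as follows. Of 6 tested early partners (*U2af1l4* failed the filter), 0 rose (2 at an unadjusted p under 0.05, 1 by DESeq2) and 2 fell with shRNA2: *Snrpa* (-0.28, edgeR adjusted p = 0.00253) and *Snrnp70* (-0.21, adjusted p = 0.00849), proteins of the U1 snRNP, the second of them a direct contact of SR proteins. Neither was called without nt-shRNA replicate 1 (adjusted p = 0.0628 and 0.0818), nor *Snrnp70* without shRNA2 replicate 1 (adjusted p = 0.0507) or when scaled by library size alone (-0.12, adjusted p = 0.0923). With shRNA1, 0 early partners rose and 1 fell, beside 13.8% and 17.1% of all genes. Of 12 hnRNP genes, 2 rose and 1 fell with shRNA1, beside those same shares. The counts with shRNA2 were 6 and 0, the latter also 0 at an unadjusted p under 0.05 and by DESeq2. *Hnrnpd* (log2 fold change 0.91) and *Hnrnpa2b1* (0.53) came first by p-value with shRNA2. Of 12 genes of NMD and mRNA export, 6 rose and 2 fell with shRNA2, and 0 were called with shRNA1 (30.9% of all genes), by edgeR or DESeq2, with 2 higher at an unadjusted p under 0.05. *Nxf1*, the export receptor bound by *Srsf3* and *Srsf7*, rose from 97.1 ± 2.55 to 153 ± 19.3 normalised CPM (0.66, edgeR adjusted p = 1.9e-06), as did *Upf3a* (0.53). Its partner *Nxt1* fell (-0.29), and *Upf1*, the helicase of NMD, was lower by a margin that held in 7 of 15 alternatives (-0.16, adjusted p = 0.0485, and up to 0.278 with a library left out, without nt-shRNA replicate 1).

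**Figure D4:**
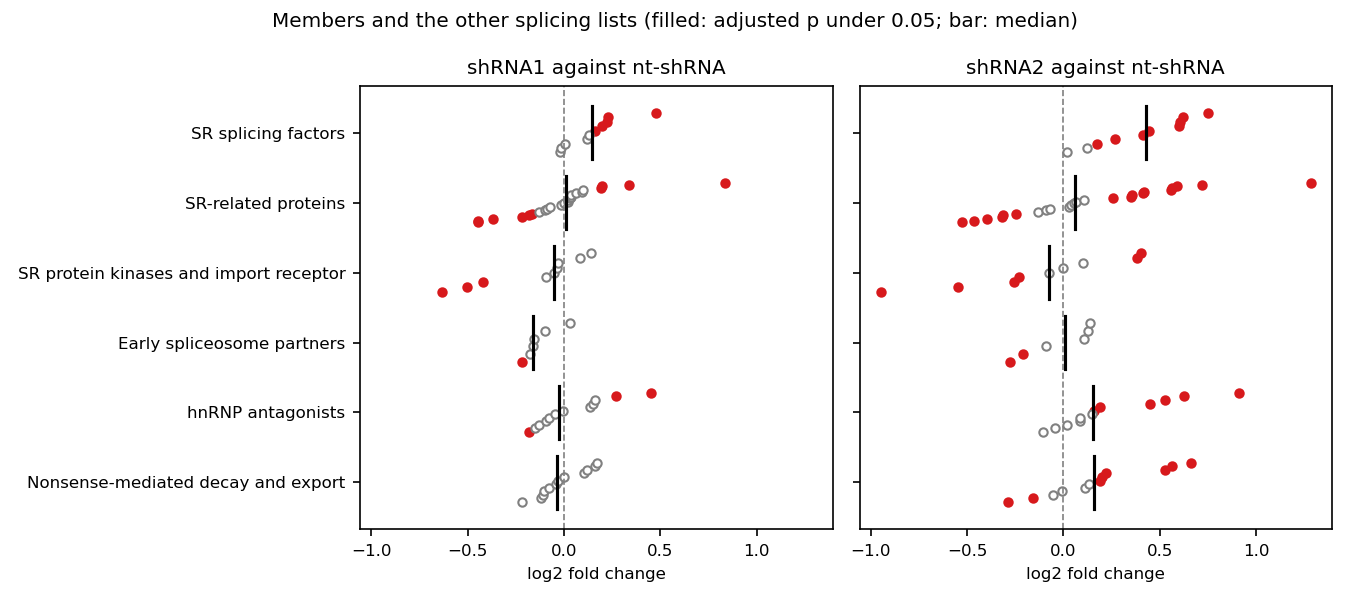
Log2 fold change of every tested gene of the SR family and of the 5 other lists with shRNA1 and with shRNA2 against nt-shRNA, with filled points where edgeR's adjusted p is under 0.05 and a bar at the median of each list. The SR points lie at or to the right of -0.02 with shRNA1 and at or to the right of 0.02 with shRNA2. Each other list has points on both sides of 0 with either hairpin, as has the SR family with shRNA1.

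*Srsf3* had the smallest adjusted p of the family with shRNA2, and the genes with the most similar course over the 8 libraries were looked up among 6276 genes with a mean log2 CPM of at least 5. By root mean square distance between centred log2 profiles, the nearest were *Slc12a2* (0.0534), a sodium-potassium-chloride cotransporter, *Heatr3* (0.0568), a ribosomal protein import factor, and *Epm2aip1* (0.0576). Their log2 fold changes with shRNA2 were 0.71, 0.73 and 0.72, beside 0.75 for *Srsf3*, a closeness that follows from choosing them by profile. With so few groups, other genes may share a course of this shape, and how many do was not counted.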

How the data were processed

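Poly(A) RNA was sequenced as paired ends in 8 libraries. The authors aligned reads with STAR to GRCm38, counted fragments over exons with featureCounts 1.6.2 on GENCODE M24 and deposited raw counts per gene, not normalised, together with exon lengths. Strand was ignored, and fragments that fell on several genes or aligned to several places were dropped. Per the submitters' processing notes FastQC was run, and the STAR version is not given in the sources used here. Column names match the sample titles, and 0 per-sample columns were left unused. Identifiers were matched to GENCODE M21 symbols (55144 of 55385).

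In R 4.3.3, genes that passed filterByExpr of edgeR 4.0.16 (minimum count 10) were scaled by TMM, and all 8 libraries were fitted with glmQLFit, 1 coefficient per group and no block, and tested with glmQLFTest, two-sided. A gene was called at a Benjamini-Hochberg adjusted p under 0.05 over all 17445 genes. The common biological coefficient of variation was 0.0638. SEs and 95% intervals came from the F statistic and are not adjusted. Values were also drawn as RPKM, from the deposited lengths. The fit was first tested on simulated data.

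Depth of 19569525 to 29871048 counts puts each member at 812 counts or more per library, and for the lowest of them, *Srsf4* and *Srsf9*, counting error is of the size of the replicate spread. Chi-square statistics per gene within groups were 3.12 to 12, so that no library repeats another within sampling noise.

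The genes named are the 10 members, *Eftud2*, from each of 5 other lists the 2 risen and the 2 fallen genes of lowest adjusted p with shRNA2, and the 3 genes closest in profile to the member with the smallest adjusted p. Marker genes for mESC, neural, fibroblast, primitive endoderm and mesoderm cells were listed by hand. The members and lists were chosen with earlier results of these data known. The alternatives replaced the test by DESeq2 1.42.0 (the authors' own test), TMM by the size factors of DESeq2 or by library size, and the filter by none or by a minimum of 10 counts in each library, fitted the compared groups only, added a replicate block, or left out each library. The exon length of coding transcripts was added after the data were seen. Near-identical copies were found with blastn 2.17.0. Splicing events and protein sequences were not analysed here.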

Additional observations from a re-analysis of the deposited data

How the results depend on the processing

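Of the 8 members called with shRNA2, all but *Srsf9* (12 of 15) were called in all 15 alternatives. Of the 5 called with shRNA1, *Srsf3* was called in all 15, *Srsf10* in 12, *Srsf1* and *Srsf2* in 11 and *Srsf5* in 9. The cause of each change below was not tested. Only 2 control libraries were available, and *Srsf4* and *Srsf9* had the lowest counts of the members. With library size in place of TMM, the median of all genes moved to 0.11 with shRNA1, 0.09 with shRNA2 and -0.03 in the direct comparison. The members' medians moved to 0.26, 0.52 and 0.21, *Srsf4* (0.0935) and *Srsf9* (0.0977) changed sign with shRNA1 and *Srsf11* (-0.0111) in the direct comparison, and *Srsf6*, *Srsf7* (shRNA1) and *Srsf4* (shRNA2) became called. The other lists then had 17 genes higher and 6 lower with shRNA1 and 36 higher and 9 lower with shRNA2, *Snrnp70* and *Upf1* (shRNA2) were no longer called, and the summed level in control cells was 520.3 normalised RPKM. Without a filter the medians were 0.41 (shRNA2) and 0.22 (direct), *Srsf11* was at -0.0019 and -0.0033, and *Srsf5* (shRNA1) and *Srsf9* (shRNA2) were no longer called. With at least 10 counts in every library they were 0.45 and 0.23, and *Srsf4* and *Srsf9* with shRNA1 were at 0.0102 and 0.0146. With only the groups compared, these 2 were at 0.0015 and 0.0059 and the direct median was 0.23. Coding transcript length gave summed levels of 956, 1079 and 1289 normalised RPKM for nt-shRNA, shRNA1 and shRNA2. DESeq2 and its size factors changed 1 call, that of *Upf1*, among those of the members and *Eftud2* in all 3 comparisons and of the other named genes with shRNA2.

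Whether equal replicate numbers mark paired libraries could not be decided. Deviations from a mean of 2 or 3 libraries constrain each other, so the correlations below cannot exclude pairing. Between shRNA1 and shRNA2 the same-numbered pairs were at 0.022, 0.057 and 0.074, and the other pairs ran from -0.083 to 0.028. Deviations from group means correlated at -0.026 to 0.074 over 7 same-numbered pairs and at -0.083 to 0.028 over 14 others. With the replicate block, 6 members were called with shRNA1 (*Srsf6* added, log2 fold change 0.18, edgeR adjusted p = 0.0352), 8 with shRNA2 and 7 in the direct comparison, *Eftud2* with shRNA1 was called (-0.21, adjusted p = 0.0207), *Srsf11* with shRNA1 was at -0.0022, the shRNA2 median was 0.45 and 10 genes of the other lists were higher with shRNA1.

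With each library left out in turn, the members called higher numbered 1 to 6 with shRNA1, 7 to 8 with shRNA2 and 6 to 7 in the direct comparison. The medians ran from 0.12 to 0.20, 0.38 to 0.48 and 0.20 to 0.26. Signs changed for *Srsf4* (-0.0403 to 0.0014) and *Srsf9* (-0.0284 to 0.0048) with shRNA1 and for *Srsf11* (-0.0429 to 0.0576 with shRNA1, -0.0321 to 0.0675 with shRNA2, -0.0085 to 0.0316 direct). In the other lists, 3 to 11 genes were higher and 6 to 14 lower with shRNA1, 7 to 15 lower with shRNA2 and 2 to 5 lower in the direct comparison. The summed level in control cells ran from 541.8 to 564 normalised RPKM.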
